A study of Mus musculus and Mus musculus musculus x Mus musculus castaneus with 52 samples.

Results

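The 124 genes whose symbols end in -ps, with or without a number, were taken by that rule alone from the 16687 genes of the expression table. Of these, 33 were named after a ribosomal protein gene (Rpl, Rps or the acidic ribosomal proteins) and 91 after another gene. The gene whose symbol stands before the suffix, called the parent here, was itself in the table for 89 of them. Of the 123 genes found in RefSeq (GRCm38.p6), 100 were typed as pseudogenes, 19 as transcribed pseudogenes, 2 as protein coding (Tdg-ps and Tmem250-ps), 1 as a lncRNA (Ube2d-ps) and 1 as miscellaneous RNA (Slfn10-ps). The loci ran from 281 to 92413 bases with a median of 1213 bases, and 107 were shorter than 5 kb. Without exon structures, not all of the 124 can be called processed.

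A processed pseudogene arises when a messenger RNA is reverse transcribed and inserted elsewhere in the genome, so that it carries no introns and usually no promoter of its own. Genes with much messenger RNA in the germ line and early embryo, ribosomal protein genes above all, have left many such copies. Because a copy resembles its parent, short reads can be shared between them, and the same copy may differ in sequence, or be absent, between mouse subspecies.

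RNA was measured in mouse pluripotent stem cells in 24 libraries from 14 lines. The cross lines, labelled Mus musculus musculus x Mus musculus castaneus, were all embryonic stem cells (ESCs): F121 (wild type, XX) and the lines Dusp9+/- 1 and Dusp9+/- 2 (XX, heterozygous for the X-linked phosphatase gene Dusp9), each at 0 h and 24 h without LIF, the cytokine that holds ESCs undifferentiated, and CM1 and CM2 (wild type, XX) and CM3 and CM7 (wild type, XY) at passage P5. The musculus lines were V6.5 (wild-type XY ESCs, 0 h and 24 h without LIF) and induced pluripotent stem cells (iPSCs) at passages P7 and P13, namely LV4, LV8 and LV16 (wild type, XY) and LV20, LV21 and LV22 (wild type, XX at P7 and called XO at late passage in the series text). That gave 7 cross lines with 10 libraries and 7 musculus lines with 14 libraries. The withdrawal libraries came from cells grown in serum and LIF without feeders and were read at 36 bases, whereas the CM and LV cells grew on male feeders and were read at 36 or 51 bases. V6.5 was the only musculus ESC line, so strain and cell type coincide in the other musculus lines. LV21 at P7, labelled XX, stood with the XY LV lines at P7 for X-linked genes: Rps4x was at 7.02 log2 CPM (6.99 to 7.19 in XY lines, 7.60 and 7.65 in LV20 and LV22) and Rbmx2 at 4.58 (4.30 to 4.76, against 5.29 and 5.58). Its level of Xist, the long noncoding RNA of X inactivation, was 1.66, between the XY lines (-2.45 to -0.94) and LV20 and LV22 (3.72 and 4.33). Comparisons of XX with XY are therefore also given without the library labelled LV21. The labels call the 2 Dusp9+/- lines independent and do not say whether they derive from F121.

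Library totals ran from 8309171 to 14245900 reads. Pluripotency genes were present throughout: the 8 listed markers summed to between 2334 and 4157 CPM (counts scaled to the library total) in the cross libraries and between 2340 and 4104 CPM in the musculus libraries. The 10 fibroblast and feeder markers summed to between 64.5 and 644 CPM in the cross libraries and to between 175 and 1212 CPM in the musculus libraries, and the part of feeder RNA in the results was not tested. Most genes named -ps were weakly read. Their median mean level was 1.27 CPM against 15.4 CPM over all genes, 52 were below 1 CPM and 13 reached 10 CPM.

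The question was whether lines from a castaneus cross and musculus lines differ in these genes. Together the 124 genes took 645 to 755 CPM in each cross library, with a median of 711 CPM. In the musculus libraries they took 294 to 392 CPM, with a median of 316 CPM. The sums did not overlap, and V6.5 lay above the LV lines, at 375 to 392 CPM against 294 to 326 CPM. Between 78 and 98 of the 124 genes had at least 10 reads in a cross library, against 33 to 46 in a musculus library. Of the 124, 85 averaged at least 1 CPM over the cross libraries and 38 over the musculus libraries.

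Values below are log2 CPM with a small offset, so that a gene with 0 reads stands at -2.45. Over all 124 genes the median of the cross minus musculus difference, each strain taken as the mean of its 7 line means, was 1.14, with quartiles at -0.04 and 2.62. Over all genes of the table the median was 0.00, with quartiles at -0.27 and 0.30. The 526 other genes annotated as pseudogenes had a median of 0.81, so the higher level in cross lines was not particular to the -ps names. The 7 cross lines lay wholly above the 7 musculus lines for 43 of the 124 genes, where 4.31% of all genes did so. They lay wholly below for 1 gene, Ube2d-ps, where 3.58% of all genes did so. A gap of at least 1 log2 between the lowest cross line and the highest musculus line was seen for 30 of the 43, where 1.12% of all genes had one.

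**Figure D1:**
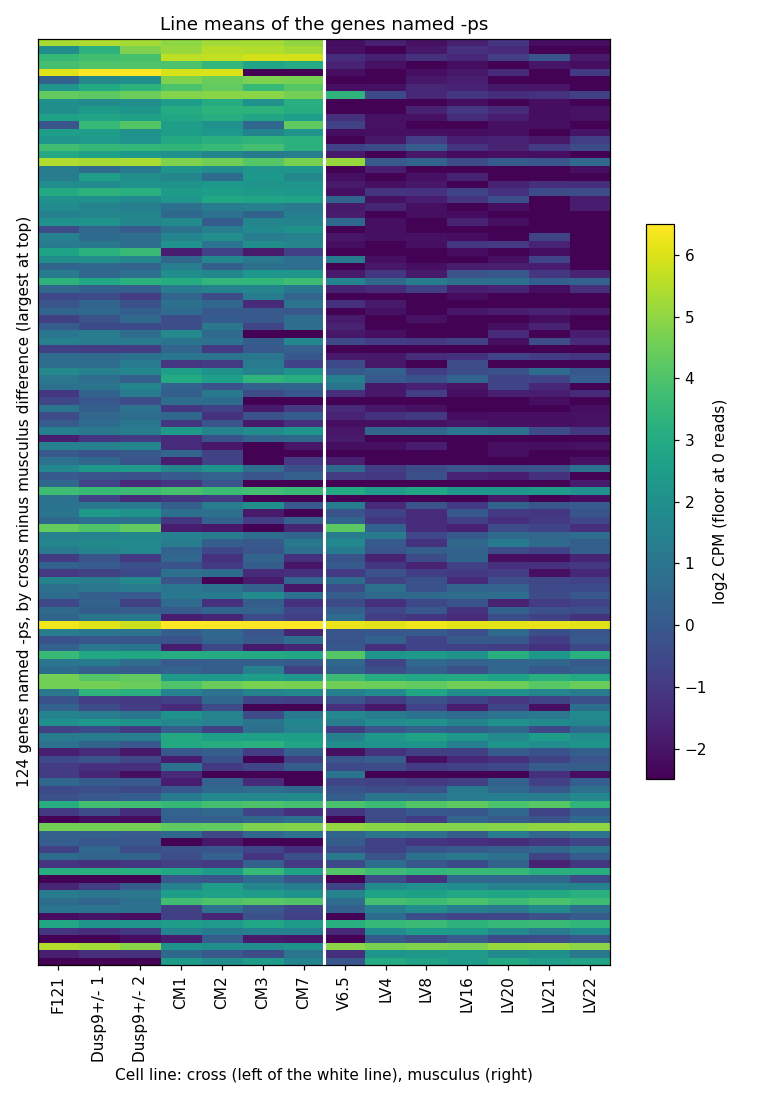
Mean log2 CPM of each of the 124 genes named -ps (one band per gene, ordered by the cross minus musculus difference) in each of the 14 lines, with cross lines left of the white line. The bands near the top are bright in most cross lines and dark in the musculus lines, while a few bands, Rpl14-ps1 among them, are bright in every line.

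**Figure D2:**
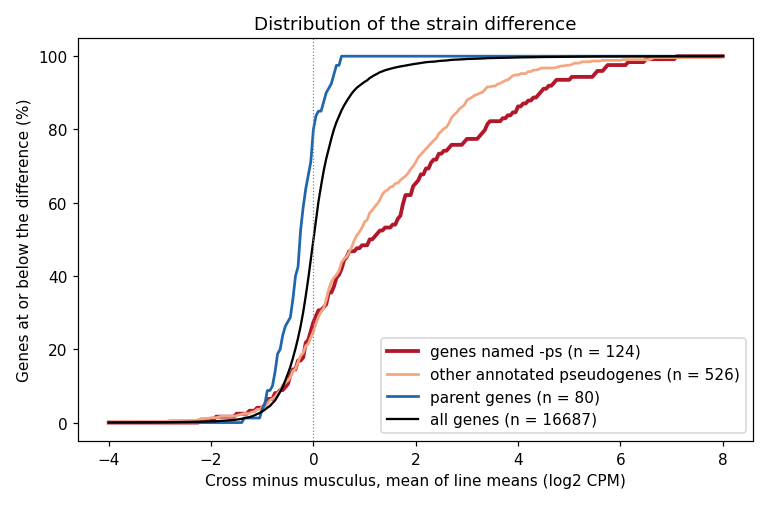
Cumulative share of genes (vertical axis, percent) at or below a given cross minus musculus difference (horizontal axis, log2 CPM) for the 124 genes named -ps, 526 other annotated pseudogenes, 80 parent genes and all 16687 genes. The curves of both pseudogene lists lie to the right of all genes, with medians of 1.14 and 0.81, and the curve of the parents lies slightly to the left, with a median of -0.27.

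With limma on the line means and Benjamini-Hochberg adjustment over the 14242 genes that averaged at least 1 CPM, 72 of the 124 genes were tested. Of these, 35 were higher in cross lines, where 13.7% of all tested genes were, and 4 were lower, where 13.8% were. The filter favours a difference, since 34 of the 72 tested genes reached 1 CPM in the cross libraries only, and 29 of these 34 were higher. Of the 36 that reached it in both strains, 6 were higher and 3 lower, near the shares over all tested genes. Most of the 35 thus passed the filter through the strain in which they are high. Fitted without the filter, all 124 genes gave 60 higher and 5 lower, where 13.8% and 12.2% of all genes were called. Of the ribosomal protein copies, 20 of 33 were tested, and 9 were higher and 1 lower. Of the others, 52 of 91 were tested, and 26 were higher and 3 lower. Among the 16 loci of 5 kb or more, 10 were tested and 1 was higher, against 34 of 62 tested among the shorter loci.

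Within the withdrawal experiment, where all lines were ESCs in one culture, 79 genes were tested and 45 were higher in F121 and the Dusp9+/- lines than in V6.5, where 14.0% of all genes were, and 3 were lower, where 10.8% were. There the cross lines are XX and V6.5 is XY, so strain and sex cannot be told apart, and the musculus side is V6.5 alone, whose 2 times stand in for replicates, so these p-values do not measure the spread between musculus lines. Between CM ESCs and LV iPSCs at P7, 34 of 67 tested genes were higher and 4 lower, where 14.9% of all genes were called in each direction. Of the 35 genes, 25 were called higher in both of these comparisons. Both reuse libraries of the fit that called the 35, so this count is partly fixed by that choice. The share over all genes is not given for it. Among XY lines alone, 19 of 56 tested genes were higher and 1 was lower, where 4.14% and 3.59% of all genes were called. Among undifferentiated ESC lines V6.5 entered once as the only musculus library, so that the spread came from the cross lines alone. There 20 of 81 tested genes were higher and 0 lower (35 in either direction at an unadjusted p under 0.05), where 1.3% and 0.377% of all genes were called. In 24 of the 35 genes V6.5 lay at least 1 log2 below every cross line and was not as much as 1 log2 above every LV line. In 5 it lay below every cross line by under 1 log2, and in 6 it lay within or above the cross lines. It was at least 1 log2 above every LV line in 6 of the 35. V6.5 was itself a musculus line in the fit that called the 35, so its low place is partly fixed by that choice. The share over all genes was not computed.

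The most separated gene was Rpl28-ps3 (chromosome 4, 126069827 to 126070316, GRCm38.p6), a copy of a gene for a large ribosomal subunit protein. The lowest, median and highest values were 4.96, 5.27 and 5.57 over the 10 cross libraries. Over the 14 musculus libraries they were -2.45, -1.94 and 0.25. All cross libraries were high and alike, all musculus libraries were near the floor, and the groups did not overlap. In reads this was 4580 against 20, or 38.7 against 0.139 CPM. The difference of line means was 7.09 ± 0.19 (SE; limma, adjusted p = 3.27e-13), while Rpl28 itself differed by 0.23 ± 0.14 (adjusted p = 0.244). Fitted differences of genes at the floor depend on the offset and are no bounds on a fold.

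Hsp25-ps1 (chromosome 13, 45078370 to 45079184), named after the small heat shock protein Hsp25, was similarly even. Its lowest, median and highest values were 2.83, 3.91 and 4.09 in cross libraries and -2.45, -2.45 and -1.38 in musculus libraries. It had 1600 reads in the cross libraries and 8 in the musculus libraries, of which 8 libraries had none. The groups did not overlap, and the difference was 5.73 ± 0.24 (SE; limma, adjusted p = 7.1e-11).

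In 3 further ribosomal protein copies the cross lines themselves spread widely. Rpl36-ps3 (chromosome 12, 12911987 to 12912385) had values from 1.67 to 5.16 in F121 and the Dusp9+/- lines and from 5.12 to 5.53 in the CM lines, against -2.45 to -0.45 in musculus libraries. Rps12-ps10 (chromosome 2, 122219913 to 122220418) stood at 3.41 to 4.07 in F121 and the Dusp9+/- lines, at 5.62 to 5.93 in the CM lines and at -2.45 to 0.17 in musculus libraries. Rps2-ps13 (chromosome X, 52898559 to 52899511) stood at 0.30 to 2.05, at 4.45 to 4.76 and at -2.45 to -1.36 in the same order. In all 3 no musculus library reached a cross library. By line mean F121 was the lowest cross line for all 3. The strain differences were 6.48 ± 0.50 for Rpl36-ps3 (adjusted p = 1.05e-07), 6.13 ± 0.43 for Rps12-ps10 (adjusted p = 3.25e-08) and 5.51 ± 0.63 for Rps2-ps13 (adjusted p = 1.12e-05; SE, limma). The CM libraries also differed from the withdrawal libraries in feeders and, in part, read length, and the part of these was not tested.

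**Figure D3:**
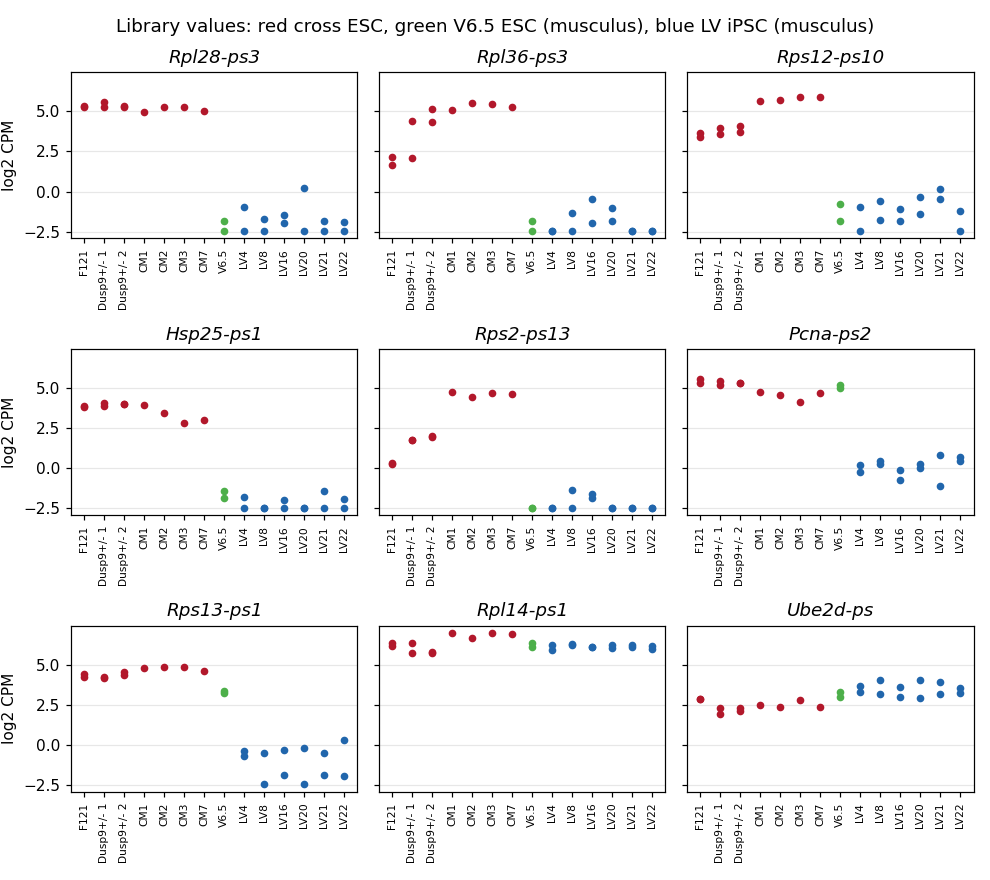
Library values (log2 CPM) of 9 genes named -ps in each line, with 1 point per library; red points are cross ESCs, green points V6.5 ESCs and blue points LV iPSCs. Rpl28-ps3 is high in all cross lines and near the floor elsewhere, Pcna-ps2 and Rps13-ps1 are high in V6.5 too, and Rpl14-ps1 is high everywhere.

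Tdg-ps (chromosome 15, 82516295 to 82519242), a copy of the gene for thymine DNA glycosylase, which removes mispaired thymine and oxidized methylcytosine from DNA, had lowest, median and highest values of 1.70, 2.47 and 3.32 in cross libraries. In musculus libraries they were -2.45, -2.16 and -0.29, from 19 reads in all. The groups did not overlap, and the difference was 4.67 ± 0.30 (SE; limma, adjusted p = 1.05e-08). In cross lines its log2 ratio to Tdg was 0.06 ± 0.11 (SD, n = 7), and in musculus lines it was -4.89 ± 0.49 (SD, n = 7). The windows around the start sites of Tdg and Tdg-ps in RefSeq share a 28-base run, the best local match between the windows, shown as the stretch they have in common. In Tdg-ps it lies before the annotated gene, so it does not measure how alike the gene and its parent are. In Tdg it starts at base 23, counting the start site as base 1 (chr10:82629860-82629887, plus strand). In Tdg-ps it starts 39 bases before the annotated start (chr15:82516256-82516283, plus strand). Capitals mark the single difference, G12A, counted from 1 at the 5′ end of the run with the Tdg base first.
Tdg: ggggactcgccGcggtgatgtagcagcg
Tdg-ps: ggggactcgccAcggtgatgtagcagcg

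Dppa3-ps (chromosome X, 37625380 to 37626197) is named after Dppa3, which encodes a maternal factor that guards DNA methylation in the zygote. Its values ran from 1.69 through a median of 2.77 to 3.36 in cross libraries and from -2.45 through -1.48 to -0.15 in musculus libraries. The groups did not overlap, and V6.5 had no read of it. The difference was 4.39 ± 0.30 (SE; limma, adjusted p = 3.25e-08), whereas Dppa3 differed by -1.04 ± 0.49 (adjusted p = 0.128).

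Of the 80 distinct parents in the table, 3 were higher in cross lines and 25 lower, where 13.7% and 13.8% of all tested genes were called, and their median difference was -0.27. Of the 30 parents tested for the 35 genes higher in cross lines, 1 was higher, 10 were lower and 19 were not called. The ribosomal protein genes as a whole, of which 85 were tested, gave 6 higher and 19 lower. Both counts turned on the set of lines. Between CM and LV line means the parents gave 10 higher and 20 lower and the ribosomal protein genes 20 and 15. The share of all genes called in that set is not given here. Among XY lines the parents gave 3 and 3, where 4.14% and 3.59% of all genes were called. Within the withdrawal experiment they gave 4 and 27, where 14.0% and 10.8% were called. Among undifferentiated ESC lines, with V6.5 as 1 library, they gave 0 and 0 (limma, 9 at an unadjusted p under 0.05). Among the 50 pairs in which the gene named -ps was over 1 log2 higher, the parent was within 1 log2 in 48 and over 1 log2 lower in 2. The log2 ratio of gene to parent was higher in every cross line than in any musculus line for 33 of the 89 pairs, and lower for none. By their own values 35 of these 89 genes lay wholly above in cross lines, so the ratio count is not separate from that difference. The share over other pairs of genes was not computed.

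These ratios are not per length, so only their change between strains is read. The 4 widest ratio changes without overlap were in Rpl36-ps3, Rps2-ps13, Rpl28-ps3 and Rps12-ps10. For Rpl28-ps3 the log2 ratio to Rpl28 was 0.68 ± 0.41 in cross lines and -6.18 ± 0.38 in musculus lines (SD, n = 7 each). For Rpl36-ps3 the ratio to Rpl36 was 2.94 ± 0.75 and -4.49 ± 1.06. For Rps12-ps10 the ratio was -0.12 ± 0.86 and -6.62 ± 0.62, and for Rps2-ps13 it was -2.19 ± 0.35 and -9.07 ± 0.43. How reads that match both a copy and its parent were assigned is not given in the sources used here, so the split between them is uncertain for every pair.

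**Figure D4:**
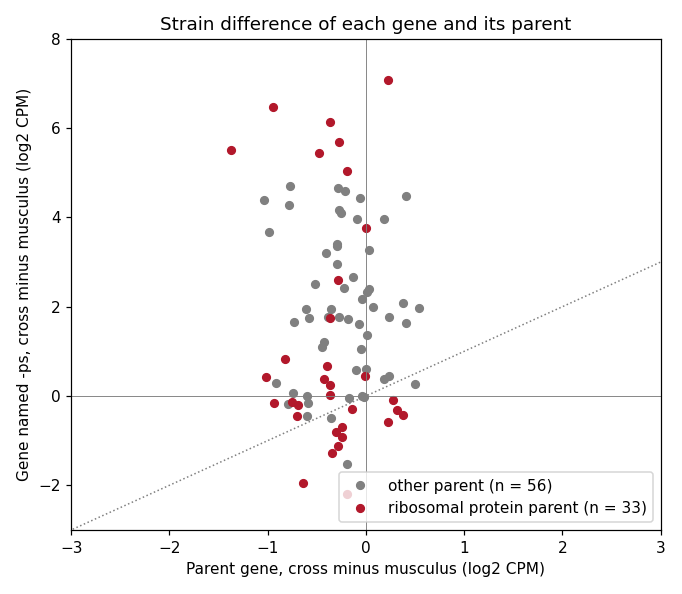
Cross minus musculus difference (log2 CPM) of each of 89 genes named -ps (vertical axis) against that of its parent (horizontal axis), with 33 ribosomal protein pairs in red, 56 others in grey and equal differences on the dotted line. The genes named -ps spread from -2.20 to 7.09, while their parents stay between -1.37 and 0.54.

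The 4 copies of Rps12, the gene for a small ribosomal subunit protein, show how far copies of 1 parent differed. Rps12-ps10 had 3519 reads in cross and 43 in musculus libraries. Rps12-ps5 had 119 and 8 reads. Its values ran from -1.86 to 1.28 in cross libraries and from -2.45 to -1.45 in musculus libraries, so the libraries overlapped. The line means did not, with CM3, the lowest cross line, at -1.86 and LV16, the highest musculus line, at -1.95. Rps12-ps4 had 178 and 154 reads and Rps12-ps26 had 63 and 86 reads, with overlapping values in both. Rps12 itself differed by -0.37 ± 0.12 (SE; limma, adjusted p = 0.0378).

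Fewer genes went the other way, 4 being called lower in cross lines. Ube2d-ps (chromosome 11, 5762150 to 5784710), annotated as a lncRNA and named after ubiquitin-conjugating enzymes, had values of 1.97, 2.40 and 2.90 (lowest, median and highest) in cross libraries and 2.95, 3.33 and 4.05 in musculus libraries. No cross library reached a musculus library, and the difference was -0.96 ± 0.14 (SE; limma, adjusted p = 0.000139). It was no longer called within the withdrawal experiment (-0.75, adjusted p = 0.0932).

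Rpl19-ps11 (chromosome 8, 19492906 to 19493609), a copy of a large-subunit ribosomal protein gene, fell by 1.94 ± 0.56 (SE; limma, adjusted p = 0.0167) in cross lines. The LV libraries stood at 0.70 to 2.68, V6.5 at -1.45 and -1.05, and the cross libraries at -1.90 to 0.98. V6.5 lay with the cross lines, so the groups overlapped. Tmem250-ps (chromosome 2), annotated as protein coding, differed by -0.34 ± 0.10 (adjusted p = 0.0147), with values of 4.28 to 4.82 in cross and 4.74 to 5.17 in musculus libraries. Zfp862-ps, a long transcribed locus of 30494 bases on chromosome 6, differed by -0.52 ± 0.18 (adjusted p = 0.0377) and lost the call without any 1 of LV4, LV8, LV16, LV20, V6.5, CM1, CM2 or CM7, at adjusted p from 0.0574 to 0.0766 (limma).

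The 6 genes with the highest mean value include Tmem250-ps and Zfp862-ps, given above. Rpl14-ps1 (chromosome 7, 45324958 to 45325651), a transcribed copy of a large-subunit ribosomal protein gene, led them with lowest, median and highest values of 5.77, 6.38 and 7.00 in cross and 5.95, 6.16 and 6.36 in musculus libraries. It alone took 12.3% of the reads of all 124 genes in cross libraries and 22.2% in musculus libraries. Tpt1-ps3, named after the translationally controlled tumour protein gene Tpt1, stood at 4.04 to 4.75 and 4.07 to 4.64. Ppp4r1l-ps, a locus of 80220 bases, stood at 3.04 to 4.00 and 3.04 to 4.47. The strains overlapped for all 3, although the 4 CM libraries of Rpl14-ps1, at 6.71 to 7.00, lay above every musculus library.

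Tdgf1-ps1 (chromosome 16, 3730258 to 3731155) departed from that pattern. It is named after Tdgf1, the gene of the Nodal co-receptor Cripto, which pluripotent cells express strongly. The 4 CM libraries stood at 1.89 to 2.08, while F121 and the Dusp9+/- lines stood at 4.65 to 5.62, V6.5 at 4.67 and 5.20, and LV libraries at 4.55 to 5.42. The CM lines were thus low beside every other line, with a gap of over 1 log2. That gap was seen in 0.0959% of all genes and 0.57% of the other annotated pseudogenes. The parent Tdgf1 differed between strains by -0.19 ± 0.09 (limma, adjusted p = 0.133).

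Other label groupings separated the lines for some genes, chosen after their values were seen and with no test. In 5 genes all ESC lines, V6.5 included, lay at least 1 log2 above all LV iPSC lines: Atf1-ps, Krt8-ps, Mrpl48-ps, Pcna-ps2 and Rps13-ps1. Each of the 5 is also among the genes called higher in cross lines above. A gap of that size in that direction was seen in 0.192% of all genes and in 3.61% of the other annotated pseudogenes. Pcna-ps2 (chromosome 19, 9283238 to 9284495), named after the DNA polymerase clamp gene Pcna, stood at 4.13 to 5.56 in cross libraries, 5.01 and 5.23 in V6.5 and -1.10 to 0.83 in LV libraries. Rps13-ps1 stood at 4.21 to 4.91, 3.28 and 3.41, and -2.45 to 0.33 in the same order. V6.5 lay within the cross libraries for Pcna-ps2 and below each of them for Rps13-ps1.

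The experiment separated others. Rplp0-ps1, a copy of the gene for a ribosomal stalk protein, stood at 3.91 to 4.65 in F121 and the Dusp9+/- lines and at 4.22 and 4.26 in V6.5. It stood at -2.45 to -1.56 in CM libraries and at -2.45 to 0.62 in LV libraries, so both strains were high in the withdrawal experiment and low outside it. Of all genes, 0.324% were higher in the withdrawal lines with such a gap, as were 5.32% of the other annotated pseudogenes. The parent Rplp0 went the other way, with line means of 7.79 to 8.72 in the withdrawal lines and 9.12 to 9.61 in the CM and LV lines. The opposite was seen in Rpl28-ps1, Rpl39-ps, Rps10-ps1, Rps13-ps2, Rps24-ps3 and Rpsa-ps11, all ribosomal protein copies. Lower with such a gap were 0.246% of all genes and 2.66% of the other annotated pseudogenes. Some parents were also lower in every withdrawal line than in any other line. By line mean Rps10 stood at 3.43 to 5.03 against 5.63 to 6.17 and Rpsa at 3.34 to 3.53 against 4.39 to 4.71. Rps24 stood at 7.33 to 7.96 against 8.06 to 8.21. The parents Rpl28, Rpl39 and Rps13 overlapped. Rps24-ps3 (chromosome X) stood at 0.28 to 1.06 in all withdrawal libraries and at 3.59 to 4.18 in all CM and LV libraries. Rps13-ps2 had no read in F121 and the Dusp9+/- lines, and stood at -0.29 and 0.12 in V6.5, at 1.57 to 2.45 in CM libraries and at 2.21 to 3.17 in LV libraries. The withdrawal libraries had no feeders and reads of 36 bases, and the part of either in these values was not tested.

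Within the crosses, 2 genes were higher in F121 and the Dusp9+/- lines than in all other lines with such a gap. Of all genes 0.318% were so, and of the other annotated pseudogenes 4.56%. Ftl2-ps, named after a ferritin light chain gene, stood at 2.71 to 3.88 in F121 and the Dusp9+/- lines, at -1.86 to -0.75 in CM libraries and at -2.45 to -1.85 in musculus libraries, with 689, 12 and 2 reads in the same order. Psmb6-ps2, named after a proteasome subunit gene, had the same order at 1.22 to 1.71, -2.45 to -1.40 and -2.45 to -1.72. In the CM lines, 3 genes were higher with such a gap: Nudc-ps1, Rps12-ps10 and Rps2-ps13. There 0.312% of all genes and 4.56% of the other annotated pseudogenes were higher. Nudc-ps1 was higher in CM libraries, at 2.60 to 3.36, than in F121 and the Dusp9+/- lines, at 0.06 to 1.14, and V6.5 at 1.30 and 1.53 lay above the latter.

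Rps4x-ps (chromosome 5, 3875339 to 3876256) was read in cross lines labelled XX and not in those labelled XY. Its parent Rps4x is the X-linked gene for a small-subunit ribosomal protein. F121 and the Dusp9+/- lines stood at 5.96 to 6.81 with 6311 reads, CM1 and CM2 at 5.97 and 6.03 with 1422 reads, and CM3 and CM7 at the floor with 0 reads. The 14 musculus libraries, XX and XY alike, held 15 reads together and did not pass -0.73. Between CM and LV lines the XX minus XY effect differed by 7.60 ± 0.86 (SE; limma interaction, adjusted p = 0.0139), and Rps4x-ps was 1 of 3 genes so called, or 0.0213% of those tested. Without LV21 that difference was 7.08 (adjusted p = 0.00127). Rps4x itself stood at 5.46 to 7.86 in XX cross libraries, 7.20 to 7.33 in XY cross libraries and 5.80 to 7.65 in musculus libraries. These ranges overlap only when the experiments are pooled. Among the CM lines Rps4x was higher in CM1 and CM2, at 7.84 and 7.86, than in CM3 and CM7, at 7.33 and 7.20. By line mean F121 and the Dusp9+/- lines stood at 5.54 to 5.65, below V6.5 at 5.84.

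In the XX against XY comparison over CM and LV lines, Rps4x-ps was the only 1 of 67 tested genes called, at 3.89 ± 1.09 (SE; limma, adjusted p = 0.0318), where 13.3% of all genes were called. The call was lost without CM1, CM2, CM3, CM7 or LV22, at adjusted p from 0.0552 to 0.0994. Without LV21, Rps4x-ps differed by 4.59 (limma, adjusted p = 0.00354). Its strain difference of 5.69 ± 1.41 (adjusted p = 0.00688) has CM3 and CM7 within the musculus range, and it was not called between CM and LV lines at P7 (3.61, adjusted p = 0.11).

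Of the 124 genes, 7 had 0 reads in both XY cross libraries and at least 1 read in each of the 8 XX cross libraries, where 0.342% of all genes did, namely Rps4x-ps, Fthl17-ps2, Atg4a-ps, Rbmx2-ps, Rhox7-ps2, Xlr3d-ps and Xlr3e-ps. Each lies on the X chromosome or is named after a gene there. In 4 of the 7 (Rps4x-ps, Fthl17-ps2, Atg4a-ps and Rbmx2-ps) the XX cross lines lay above all others by at least 1 log2. They did so for 0.108% of all genes and 0.19% of the other annotated pseudogenes. Fthl17-ps2 had 137 reads in F121 and the Dusp9+/- lines, 48 in CM1 and CM2 and 10 in the musculus libraries. Atg4a-ps, on chromosome 3 and named after an X-linked autophagy protease gene, had 46, 32 and 1 reads in the same order, and Rbmx2-ps, on chromosome 2, had 57, 17 and 1. Rhox7-ps2, in the Rhox homeobox cluster, had 51 and 9 reads but also 63 in the musculus libraries. Of the 7 genes named after an X-linked gene that was in the table, 3 had 0 reads in the XY cross libraries. A count of 0 allows up to 3 reads in a library, and Atg4a-ps and Rbmx2-ps are low in every line.

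**Figure D5:**
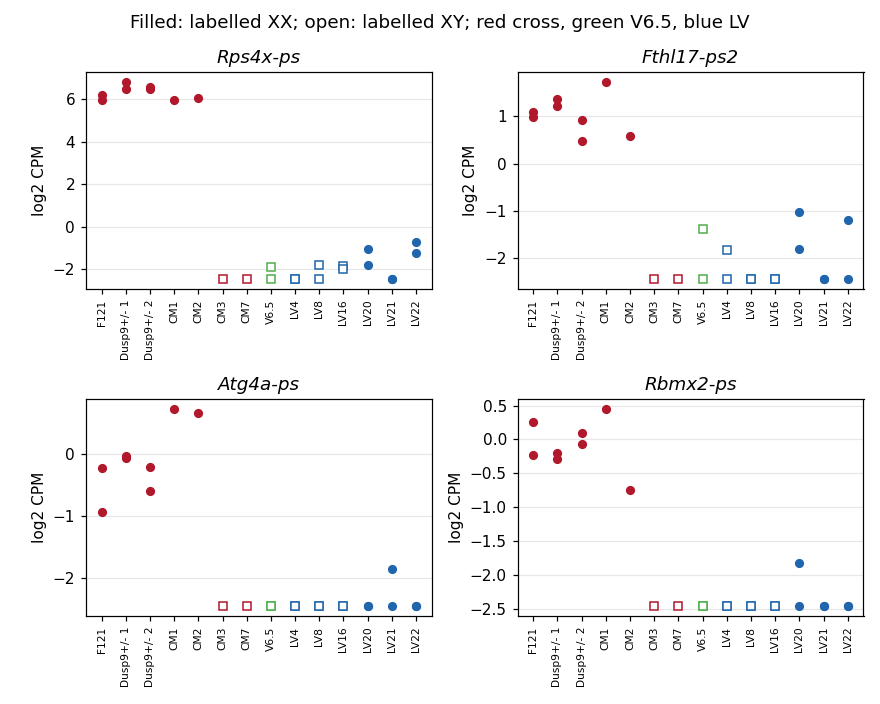
Library values (log2 CPM) of 4 genes named -ps that lie on the X chromosome or are named after an X-linked gene, by line, with filled points for lines labelled XX and open squares for lines labelled XY; red is cross, green V6.5 and blue LV. The XX cross lines lie above all others, CM3 and CM7 are at the floor of -2.45, and XX and XY musculus lines are both low. Atg4a-ps and Rbmx2-ps are weakly read even in the XX cross lines, at no more than 0.73 and 0.45.

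Few of these genes were called for LIF withdrawal. Of 79 tested, 6 were higher and 2 lower at 24 h than at 0 h, where 16.8% and 15.9% of all genes were. Without Dusp9+/- 2 these counts were 1 and 1. Slc2a4rg-ps, a transcribed locus on chromosome 2, was at 0.64, 0.77, 0.47 and 0.47 at 0 h and at 2.44, 2.69, 1.94 and 1.90 at 24 h in Dusp9+/- 1, Dusp9+/- 2, F121 and V6.5. Every line was higher at 24 h and the times did not overlap, with a difference of 1.65 ± 0.18 (SE; limma, adjusted p = 0.000957). Gpr137b-ps, a long transcribed locus on chromosome 13, went from 1.89, 1.90, 1.86 and 2.32 to 0.54, 0.79, 0.54 and 0.54 in the same lines, a difference of -1.39 ± 0.18 (adjusted p = 0.00172). Its parent Gpr137b also had fewer reads at 24 h in each line, going from 178, 220, 192 and 109 to 114, 97, 94 and 57. Tdgf1-ps1 was lower at 24 h in all 4 lines, by -0.52 ± 0.13 (adjusted p = 0.02), and lost the call without Dusp9+/- 2 or V6.5 (adjusted p = 0.058 and 0.055). Supt20-ps rose by 0.97 ± 0.19 (adjusted p = 0.00741) and Smarca5-ps, named after a chromatin remodelling ATPase gene, by 0.91 ± 0.19 (adjusted p = 0.00998). The call was lost without Dusp9+/- 2 for Supt20-ps and without either Dusp9+/- line for Smarca5-ps.

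For passage fewer genes were called, but fewer were tested. Of 36 genes tested in LV iPSCs, 1 was higher and 2 lower at P13 than at P7, where 13.1% and 12.7% of all genes were. Without LV8 or LV20 none was lower, and without LV16 2 were higher. Ube2d-ps rose from 2.95 to 3.31 at P7 to 3.56 to 4.05 at P13 over the 6 lines, without overlap, by 0.68 ± 0.15 (SE; limma, adjusted p = 0.00482). Tmem181b-ps was lower at P13 in 5 of 6 lines and slightly higher in LV16, with a difference of -1.52 ± 0.37 (adjusted p = 0.00934; 0.0526 without LV8). Olfr1372-ps1, in an olfactory receptor cluster, was lower at P13 in 6 of 6 lines, by -0.82 ± 0.29 (adjusted p = 0.0492), and lost the call without any 1 line.

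The 43 genes whose lines did not overlap lay on 15 chromosomes, and 5 of them were on X, which holds 15 of the 124. Another annotated gene overlapped 12 of the 35 loci higher in cross lines. For 6 of these the overlapping gene was in the table, and its strain difference lay between -0.42 and 0.71.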

How the data were processed

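RNA from 32 samples was deposited as 1 table of 24 columns. Per the labels' protocols, stranded mRNA libraries were read single-end, and per the submitters' processing notes STAR 2.5.3a, featureCounts and edgeR were used with GRCm38 (mm10). The strand setting, the handling of reads that match several places, and the use of technical replicates are not given in the sources used here. Values deposited by the authors are log2 CPM written with decimal commas. From them the offset was removed and whole reads recovered to within 0.0004 read, and no column was left without a sample or group.

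Here, each line entered as the mean of its libraries, genes averaging under 1 CPM were dropped, and limma 3.58.1 (R 4.3.3) with a trended variance compared 7 cross with 7 musculus lines, with Benjamini-Hochberg adjustment over all tested genes at 0.05. Passage was fitted over LV libraries, withdrawal with the genotype as a term, and XX against XY over P7 LV and P5 CM lines. Labels give lines, not separate cultures, so the strain, passage and XX against XY p-values measure the spread between these lines. In the withdrawal fit F121 and V6.5 are 1 line each. Its p-values therefore mix the gap between the 2 Dusp9+/- lines with differences between genotypes in the change over time. Passages and times repeat the same lines, which pairs them, and correlations of their deviations were -0.039 to 0.11 for passage and -0.365 for the Dusp9+/- lines. On simulated reads the strain fit (14238 genes) recovered 100% of 2-fold changes with 4.31% false calls. The changed genes there averaged at least 4 CPM and changed alike in every line, with no added spread between lines. The simulation therefore does not measure recovery or false calls for weakly read genes or genes that vary between lines.

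Named were the 6 genes with the largest called strain difference in each direction (higher strain mean at least 2 CPM), the 6 highest means, the 4 widest ratio changes without overlap, up to 3 called per direction in the other comparisons, and the Rps12 family. Genes grouped by other labels, Tdg-ps and Dppa3-ps were added after their values were seen. The members and lists were chosen with earlier results of these data known. Identity of copy and parent was not analysed here. The Tdg sequences are from RefSeq (GRCm38.p6), of which 3 of the 124 had a promoter window, aligned locally with Biopython (match 2, mismatch -3, gap -5 and -2). Alternatives covered the offset, filter, normalization, voom on recovered reads, sets of lines and each line left out. ATAC-seq samples were not used.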

Additional observations from a re-analysis of the deposited data

Results flagged for a closer look

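In the XX against XY comparison, the effect on Rps4x-ps differed between CM ESCs and LV iPSCs by 7.60 log2 (limma interaction, adjusted p = 0.0139), or by 7.08 without LV21. The genes named by rule gave 46 groups of 7 lines, 1 per gene and strain, which were searched for 1 line far from the rest. Chance puts about 1 in 20 such groups past the limit (Dixon, 95%), and 4 were past it. V6.5 was low for Rpl19-ps11 in musculus lines, at -1.25, with the LV lines at 1.09 to 2.36. LV4 was low for Rps12-ps4, at -0.66, with the next line at 0.05. LV16 was high for Rps12-ps5, at -1.95, with the next at -2.09, a separation at the level of single reads. CM1 was low for Tpt1-ps3 among cross lines, at 4.04, with the next at 4.43.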

How the results depend on the processing

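The count of 35 genes higher in cross lines moved past 1.5 times to 12 with a minimum of 4 CPM, to 60 with no filter, to 20 among undifferentiated ESC lines (V6.5 alone as musculus, assumed to vary like the cross lines) and to 19 among XY lines. The count of 4 lower moved to 7 between CM and LV line means, to 7 with the replicate block (line as a random effect), to 0 among ESC lines and to 1 among XY lines. Calls over all genes moved to 240 and 1085 in those last 2 sets. Without 1 line each, the strain counts ran from 32 to 39 higher, 3 to 7 lower and 3279 to 4447 over all genes, with 7 lower when V6.5 was left out. Of the 35, 32 were called whichever line was left out, 17 among undifferentiated ESC lines, 18 of 22 tested among XY lines, and 5 under every alternative run, which counts a gene not tested as not called. Nudc-ps1 reversed to -0.74 within the withdrawal experiment and Pcna-ps2 to -0.15 among ESC lines; the cause was not tested. Ratios to parent without overlap went from 33 to 72 within the withdrawal experiment, where 1 musculus line leaves more room.

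With no filter, genes lower after withdrawal went from 2 to 5 and genes called for XX against XY from 1 to 2. Without 1 line, withdrawal gave 1 to 7 higher, 1 to 2 lower and 1625 to 3486 genes in all, passage 1 to 2, 0 to 1 and 1799 to 4246, and XX against XY 0 to 2, 0 to 0 and 1064 to 3284. The counts of 2 for XX against XY came without LV20 or LV21. The replicate block (line) gave 1 higher and 2 lower for passage and 5 higher and 2 lower for withdrawal, and changed no other count of genes named -ps by over 1.5 times. It moved parents lower in cross lines from 25 to 40 and ribosomal protein genes lower from 19 to 33. The share of all genes called under that block is not given here. With the Dusp9+/- lines crossed, a choice made after seeing the data, withdrawal gave 5 and 2. Depth limits the weakest members: 52 of the 124 averaged under 1 CPM.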
